A study of Pan troglodytes with 217 samples.

Results

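Integrins are cell surface receptors made of an alpha and a beta chain, which bind proteins of the extracellular matrix outside the cell and the actin or keratin cytoskeleton inside it. The pairing of chains sets the ligand: ITGA6 with ITGB1 or ITGB4 binds laminin, ITGA5 with ITGB1 binds fibronectin, ITGA2 with ITGB1 binds collagen, and ITGAV with ITGB3, ITGB5 or ITGB6 binds proteins that carry an RGD motif, such as vitronectin, fibronectin and osteopontin. In the blastocyst the extraembryonic lineages lay down basement membrane, and integrins are known for holding epiblast and endoderm to it and for the attachment of trophoblast to the uterus. The genes described here are 5 alpha chains (ITGA2, ITGA3, ITGA5, ITGA6 and ITGAV) and 5 beta chains (ITGB1, ITGB3, ITGB4, ITGB5 and ITGB6), taken by their symbols. All 10 matched 1 Ensembl chimpanzee identifier each, among 33729 identifiers in the data, and 8 of the 10 were read in enough cells (20 or more) to be called between classes. ITGA2, read in 8 cells, and ITGB6, read in 19, were not.

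The cells came from day 4 chimpanzee blastoids, blastocyst-like structures grown from naive induced pluripotent stem cells whose medium contains an inhibitor of the histone methyltransferase EZH2. Most of the mural trophectoderm was cut away before dissociation, and each cell was made into its own SMART-seq2 library, a full-length cDNA method without molecular identifiers. Which blastoid, line or batch a cell came from is not labelled, so all cells were treated as 1 sample, blastoids could not be used as replicates, and no test between classes was made. Cells with at least 8000 detected genes were kept, 24 cells fell short, and those kept held between 1679888 and 25630392 reads each.

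They formed 4 clusters that were named from marker lists: 50 epiblast-like cells, 32 hypoblast-like cells and a pair of trophectoderm-like (TE-like) clusters. The 60 CCR7-low cells are the early TE-like cells and the 51 CCR7-high cells the late ones. CCR7, which chose these names, stood at 5.71 and 315 CPM (reads of a gene scaled to a fixed total of reads), and all 9 listed markers of late trophectoderm, CCR7 included, were higher in the CCR7-high class. Each lineage list was highest in its own class, which is no separate support for the names, because these lists chose them. The epiblast list summed to 2457 CPM in epiblast-like cells against 72.4 to 573 elsewhere, the hypoblast list to 1454 CPM in hypoblast-like cells against 51.5 to 160.5, and the trophectoderm list to 3670 and 3908 CPM in the TE-like classes against 567 and 592. Markers of more than 1 lineage occurred in 28 cells (at least 5 markers at 10 CPM or more of each of 2 lists), of which 15 were epiblast-like, 10 hypoblast-like and 3 CCR7-high. Amnion and mesenchyme lists summed to at most 41.6 and 4.92 CPM in any class. The median cell of each class held 3951119, 3978822, 3693058 and 4516217 reads, in the order epiblast-like, hypoblast-like, CCR7-low and CCR7-high, and that order is kept below.

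Levels are CPM of the reads summed over the cells of a class, given with exact Poisson 95% intervals, and shares of cells have exact Clopper-Pearson 95% intervals. The Poisson intervals take each read as independent, although amplified copies of a molecule cannot be told apart without identifiers. They leave out the spread between the cells of a class. The Clopper-Pearson intervals take each cell as independent, and neither kind covers the spread between blastoids. Transcript lengths were not used, so levels are compared across classes and not between genes, and a cutoff of 10 CPM, used below for pairs and counts of genes, is not the same number of transcripts for each gene.

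ITGB1, the beta chain shared by most matrix receptors, was near the same level in all classes, whereas its laminin partner ITGA6 was highest in hypoblast-like cells and lowest in CCR7-high cells. ITGB3 separated the inner classes from the trophectoderm-like ones by the largest ratios among the 8 genes with enough cells that were higher in the inner classes, and ITGB4 had its highest level in TE-like cells. The plot of reads per cell shows these patterns cell by cell.

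**Figure D1:**
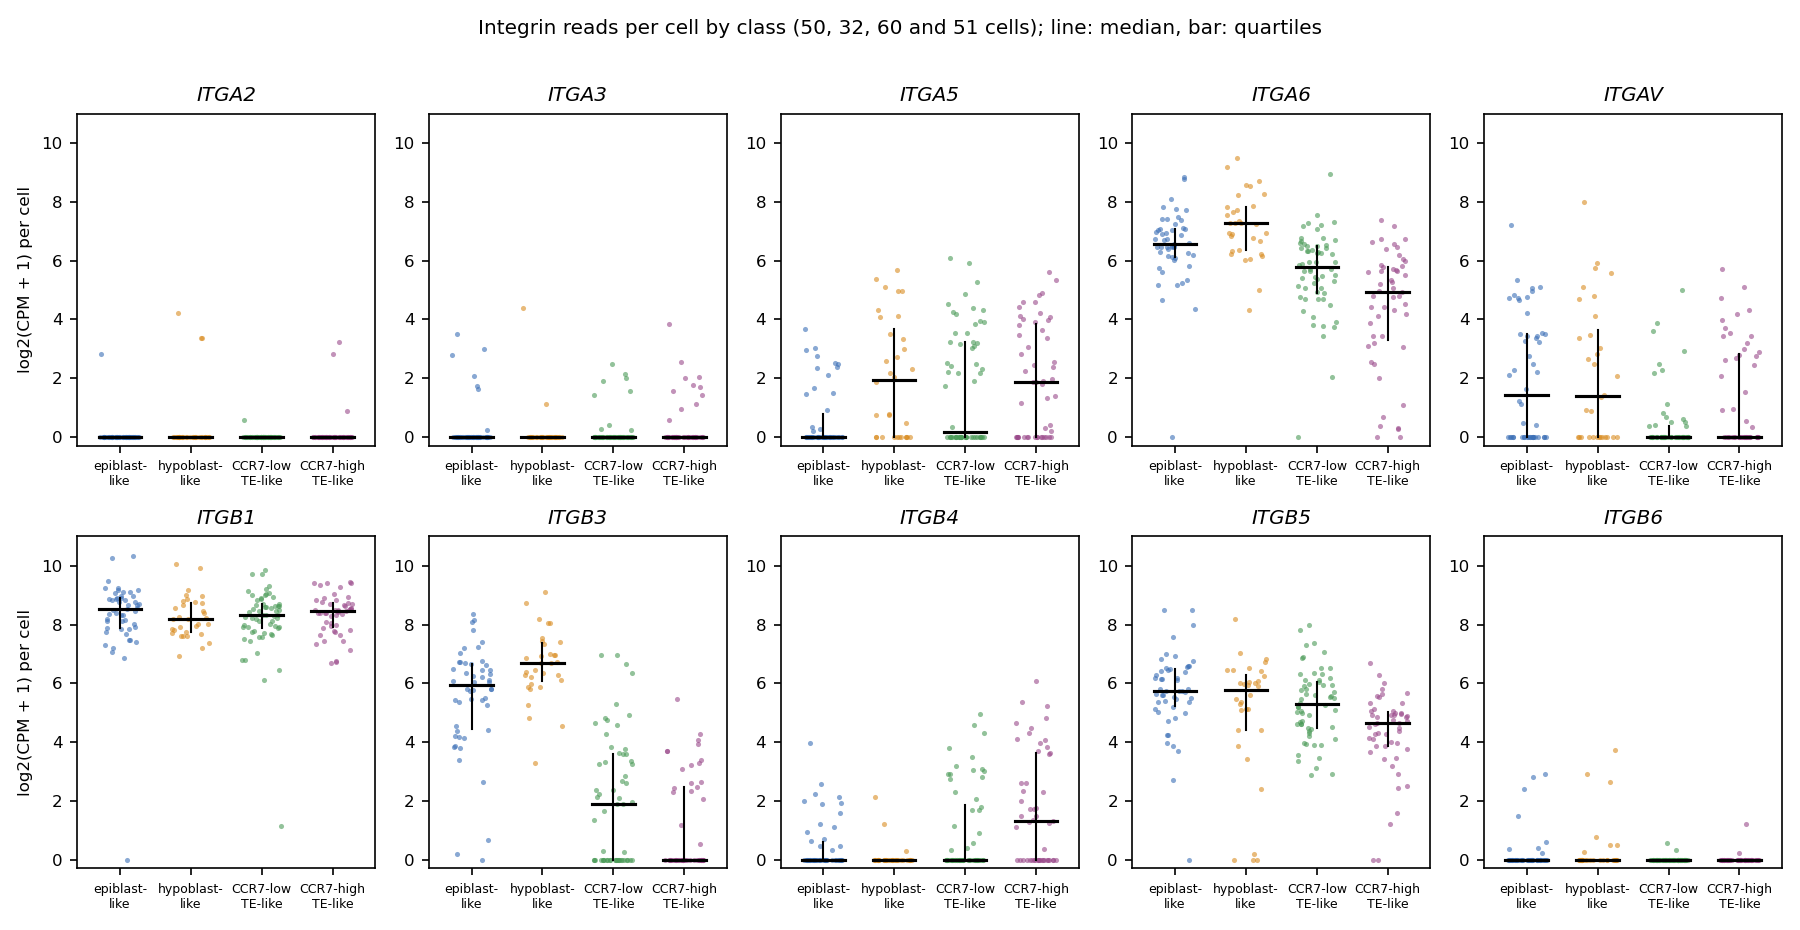
Each point is 1 cell, placed by log2(CPM + 1) of the gene named above the panel, in 50 epiblast-like, 32 hypoblast-like, 60 CCR7-low and 51 CCR7-high trophectoderm-like (TE-like) cells; the line is the median and the bar the quartiles. ITGB1 lies at one height in the 4 classes, ITGB3 drops from medians of 60.2 and 102.5 CPM in the inner classes to 2.69 and 0 CPM in the TE-like ones, and ITGA2, ITGA3 and ITGB6 lie at 0 in most cells.

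ITGB1 (ENSPTRG00000002413) had pooled levels of 385 CPM (95% interval 382.4 to 387.7), 354.3 (351.1 to 357.6), 341.4 (339.2 to 343.7) and 368.8 (366.4 to 371.2). Its median per cell was 365.5, 289.1, 320.6 and 347.8 CPM, and 99.5% of all cells had a read. In none of the 4 comparisons made below did its ratio exceed 1.09, and the quartiles of the classes overlapped, from 213.1 to 481.5 CPM in all. The direction of the small difference between epiblast-like and the other cells turned with the scaling of the reads (ratio to hypoblast-like cells 0.962 to 1.15 and to TE-like cells 0.951 to 1.16 over all settings tried). In the RefSeq annotation ITGB1 overlaps a pseudogene and ITGA6 a long non-coding RNA.

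ITGA6 (ENSPTRG00000012641), the laminin-binding alpha chain, had 111.9 CPM (110.4 to 113.3) in epiblast-like, 176.4 (174.1 to 178.7) in hypoblast-like, 61 (60 to 61.9) in CCR7-low and 37.5 (36.7 to 38.2) in CCR7-high cells. Per cell the lowest, median and highest values were 0, 93.5 and 459 CPM in epiblast-like, 19.1, 153.4 and 729.5 in hypoblast-like, 0, 54.1 and 495.4 in CCR7-low, and 0, 29.3 and 165.5 CPM in CCR7-high cells. Nearly every cell carried a read, at 98%, 100%, 98.3% and 96.1% of the classes, so the classes differed in level rather than in the share of cells with the gene. The cells overlapped widely, but the lower quartile of hypoblast-like cells, at 81.7 CPM, lay above the upper quartile of CCR7-high cells, at 54.5 CPM. At 10 CPM or more, ITGA6 was found in 49 of 50, 32 of 32, 57 of 60 and 36 of 51 cells.

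ITGA3 (ENSPTRG00000009387), another laminin-binding alpha chain, stood at 0.572, 0.475, 0.327 and 0.578 CPM, with a read in 7, 2, 9 and 11 cells. One hypoblast-like cell gave 82% of the ITGA3 reads of its class, and without it the ratio of epiblast-like to hypoblast-like cells moved from 1.2 to 6.55. ITGA2 (ENSPTRG00000016860), the collagen-binding chain, stood at 0.121, 0.848, 0.00753 and 0.283 CPM, with a read in 1, 3, 1 and 3 cells, and the 3 hypoblast-like cells were all among those with FOXA2, a hypoblast factor, at 10 CPM or more. ITGA2 overlaps the protein-coding gene MOCS2 in the RefSeq annotation. The reads of both genes lay in so few cells that 1 cell moved the ratios between classes, and no order of the classes is read from them.

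ITGA5 (ENSPTRG00000005040), the fibronectin receptor chain, was low in epiblast-like cells at 1.17 CPM (1.03 to 1.33) and stood at 8.83 (8.32 to 9.36), 7.08 (6.77 to 7.41) and 9.3 CPM (8.93 to 9.69) in the other classes. A read was present in 32% of epiblast-like cells (95% interval 19.5 to 46.7%), 65.6% of hypoblast-like (46.8 to 81.4%), 50% of CCR7-low (36.8 to 63.2%) and 66.7% of CCR7-high cells (52.1 to 79.2%). The highest epiblast-like cell had 11.9 CPM, while 9 hypoblast-like, 14 CCR7-low and 16 CCR7-high cells had at least 10 CPM, against 1 epiblast-like cell. The epiblast-like class thus stood below the other 3, whose levels lay within 1.31-fold of each other, and cells with 0 reads were present in every class.

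ITGAV (ENSPTRG00000012719), the alpha chain of the RGD-binding receptors, had 9.58 CPM (9.17 to 10), 19.7 (19 to 20.5), 1.22 (1.09 to 1.36) and 4.75 CPM (4.48 to 5.02). The inner classes had close values per cell, with medians of 1.71 and 1.63 CPM and a read in 58% and 59.4% of cells, and the 2.06-fold higher pooled level of hypoblast-like cells turned on 1 cell at 252.5 CPM, which held 44.2% of the ITGAV reads of its class. Among TE-like cells a read was present in 26.7% of CCR7-low (16.1 to 39.7%) and 47.1% of CCR7-high cells (32.9 to 61.5%), and both medians were 0. At 10 CPM or more there were 14, 9, 3 and 8 cells.

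ITGB3 (ENSPTRG00000009329), which pairs with ITGAV in the vitronectin receptor, had 76.6 CPM (75.4 to 77.8), 121.8 (119.9 to 123.8), 12 (11.6 to 12.4) and 3.11 CPM (2.89 to 3.33). The lower quartile, median and upper quartile over cells were 20.7, 60.2 and 99.9 CPM in epiblast-like, 66.6, 102.5 and 163.7 in hypoblast-like, 0, 2.69 and 11 in CCR7-low, and 0, 0 and 4.52 CPM in CCR7-high cells. At least 10 CPM was reached by 45 of 50, 31 of 32, 16 of 60 and 6 of 51 cells. The lower quartiles of both inner classes lay above the upper quartiles of both TE-like classes, although the ranges overlapped. They ran from 0 to 331.3 CPM in epiblast-like, 8.81 to 550 in hypoblast-like, 0 to 124.97 in CCR7-low and 0 to 42.8 CPM in CCR7-high cells. The highest CCR7-low cell thus lay above the medians of both inner classes.

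ITGB5 (ENSPTRG00000015313), a further partner of ITGAV, had 70 CPM (68.8 to 71.1), 53.1 (51.8 to 54.4), 48.2 (47.4 to 49) and 27.6 CPM (27 to 28.3). Medians per cell were 52.5, 53.4, 38.2 and 24.1 CPM. The quartiles of neighbouring classes overlapped throughout, and the upper quartile of CCR7-high cells, at 31.5 CPM, lay below the lower quartile of epiblast-like cells, at 36.5 CPM. ITGB6 (ENSPTRG00000012571), an epithelial partner of ITGAV, stood at 0.376, 0.817, 0.0151 and 0.016 CPM, with a read in 8, 7, 2 and 2 cells. The 8 TE-like reads of ITGB6 lay in 4 cells. In hypoblast-like cells 61.9% of the ITGB6 reads lay in 1 cell, and the level without it was 0.324 CPM. No order of the inner classes is read from ITGB6.

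ITGB4 (ENSPTRG00000009653), the beta chain that joins ITGA6 to keratin filaments in hemidesmosomes, had 0.93 CPM (0.805 to 1.07), 0.124 (0.0711 to 0.202), 2.66 (2.47 to 2.86) and 7.93 CPM (7.58 to 8.28). A read was present in 32%, 9.38%, 38.3% and 58.8% of cells. Only 1, 0, 5 and 14 cells had at least 10 CPM, so that even in the CCR7-high class most cells were below that level, and 1 cell held 31.5% of the reads of the CCR7-high class. The hypoblast-like class had 16 ITGB4 reads in 3 cells.

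**Figure D2:**
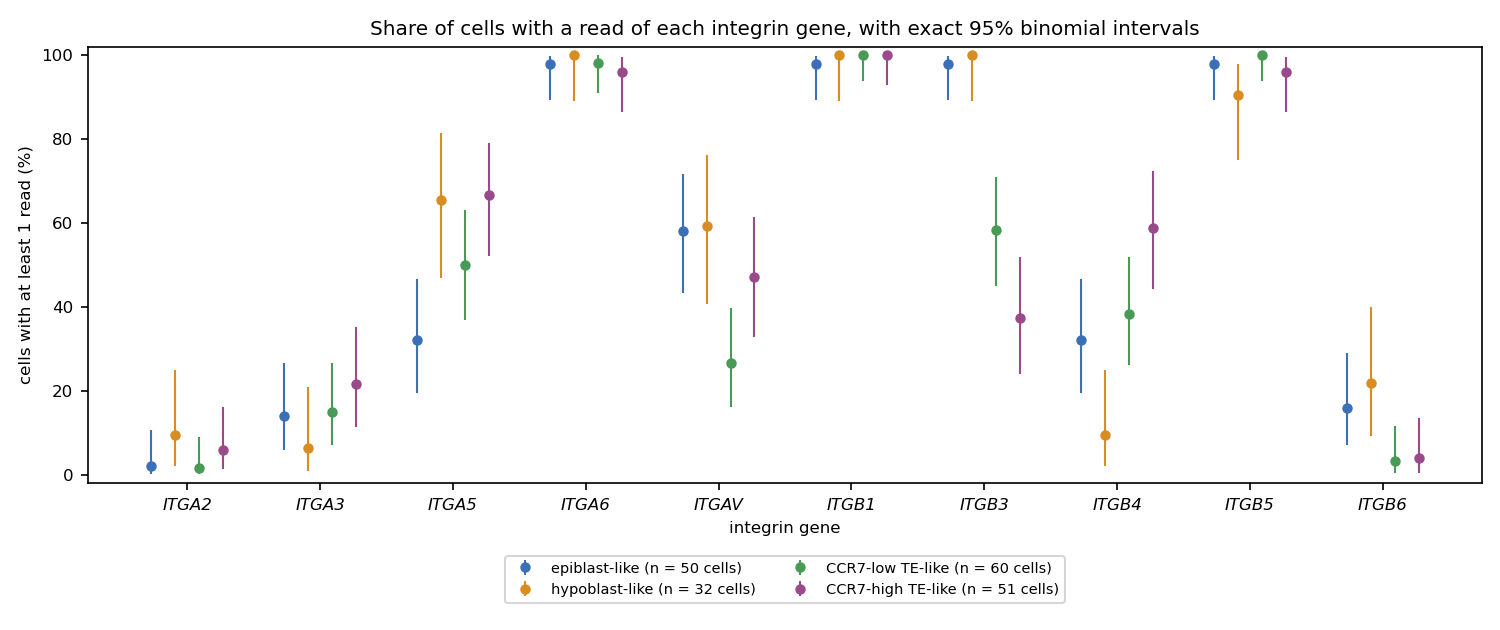
Points give the share of cells of each class (in %) with at least 1 read of the integrin gene on the x axis, and bars the exact 95% binomial interval. ITGA6, ITGB1 and ITGB5 were read in over 90% of the cells of all classes, ITGB3 in 98% and 100% of the inner classes but 58.3% and 37.3% of the TE-like ones, and the intervals of ITGA2 and ITGA3 overlapped in all classes.

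The share of cells with a read depends on depth, so all cells were also thinned to 2532312 reads, which left out 20 shallower cells (2, 7, 6 and 5 per class). The classes kept their order for ITGB3, at 95.8%, 100%, 61.1% and 34.8%, and for ITGB4, at 27.1%, 4%, 37% and 58.7%. For ITGAV the thinned shares were 60.4%, 60%, 20.4% and 45.7%, and for ITGA5 31.2%, 64%, 51.9% and 63%.

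Ratios of pooled CPM were then taken for 4 comparisons, and a gene was called at 2-fold or more. Between epiblast-like and hypoblast-like cells, 1 of the 8 genes with enough cells was higher and 2 were lower in epiblast-like cells, where 20.4% of all 15804 genes were called higher and 8.05% lower. ITGB4 was 7.47-fold higher in epiblast-like cells (4.49 to 13.3), from 200 and 16 reads. It was 14.7-fold higher without the hypoblast-like cell with the most of its reads, and 5.36-fold without the epiblast-like one. Without the 28 cells of mixed markers, ITGB4 had no read left in hypoblast-like cells. ITGA5 was 7.54-fold higher in hypoblast-like cells (6.57 to 8.68), and stayed 5.85-fold to 9.8-fold higher over all settings tried. ITGAV, 2.06-fold higher in hypoblast-like cells, fell under 2-fold in 6 of those settings, was 1.66-fold as a mean over cells and as low as 1.24-fold with at least 9000 genes, and stood at 1.19-fold without the 1 hypoblast-like cell with the most ITGAV reads. ITGA6 and ITGB3 were higher in hypoblast-like cells by 1.58-fold and 1.59-fold, short of the threshold. The median log2 ratio was -0.27 over the 8 genes and 0.19 over all genes, the latter moving to 0.02 when the classes were scaled by median of ratios.

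Against all TE-like cells, epiblast-like cells had 3 integrin genes called higher and 2 lower, beside 22.7% and 13.1% of all genes. ITGB3 was 9.97-fold (9.63 to 10.3), ITGAV 3.27-fold (3.06 to 3.49) and ITGA6 2.26-fold (2.22 to 2.3) higher in epiblast-like cells. ITGA5 was 6.97-fold (6.14 to 7.94) and ITGB4 5.61-fold (4.86 to 6.51) higher in TE-like cells. ITGA6 was at 1.98-fold under the median-of-ratios scaling, which moved the median log2 ratio of all genes from 0.12 to -0.07, so its call rests on the scaling. ITGB5 was 1.83-fold higher in epiblast-like cells and not called. The median log2 ratio over the 8 genes was 0.61.

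Hypoblast-like cells had 3 integrin genes called higher than TE-like cells and 1 lower, beside 15.1% and 16.7% of all genes. The 3 were the same chains, ITGB3 at 15.9-fold (15.3 to 16.4), ITGAV at 6.73-fold (6.31 to 7.17) and ITGA6 at 3.56-fold (3.5 to 3.62). Without the hypoblast-like cell with the most ITGAV reads, the ITGAV ratio was 3.89-fold. This comparison and the last share their TE-like cells. ITGB4 was 41.9-fold higher in TE-like cells (25.8 to 73.5), a value set by the 16 reads of the hypoblast-like class. It was 82.3-fold higher without the cell that held the most of them, and 32.8-fold without the TE-like cell with the most ITGB4 reads. ITGA5 differed by 1.08-fold and ITGB5 by 1.39-fold. The median log2 ratio was 0.29 over the 8 genes and -0.04 over all genes.

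Within the trophectoderm-like cells, 2 integrin genes were called higher in the CCR7-high class and 1 lower, beside 11.9% and 11.2% of all genes. ITGAV was 3.88-fold higher (3.43 to 4.4) and ITGB3 3.87-fold lower (3.57 to 4.19) in CCR7-high cells, and both calls held in all settings tried. ITGB4 was 2.98-fold higher (2.73 to 3.25), but the ratio of CCR7-high to CCR7-low cells turned to 0.634 when cells with at least 7000 genes were admitted and to 0.682 with 15 neighbours in the clustering. The first of these settings changed both the cells and their division, the second the division alone, and their parts were not tested. ITGA6 and ITGB5 were 1.63-fold and 1.74-fold higher in CCR7-low cells, short of the threshold, but passed it in some settings (ITGA6 at 2.07-fold with at least 7000 genes and 2.06-fold with 15 neighbours, ITGB5 at 2.05-fold as a mean over cells). The median log2 ratio was 0.25 over the 8 genes and 0.04 over all genes.

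**Figure D3:**
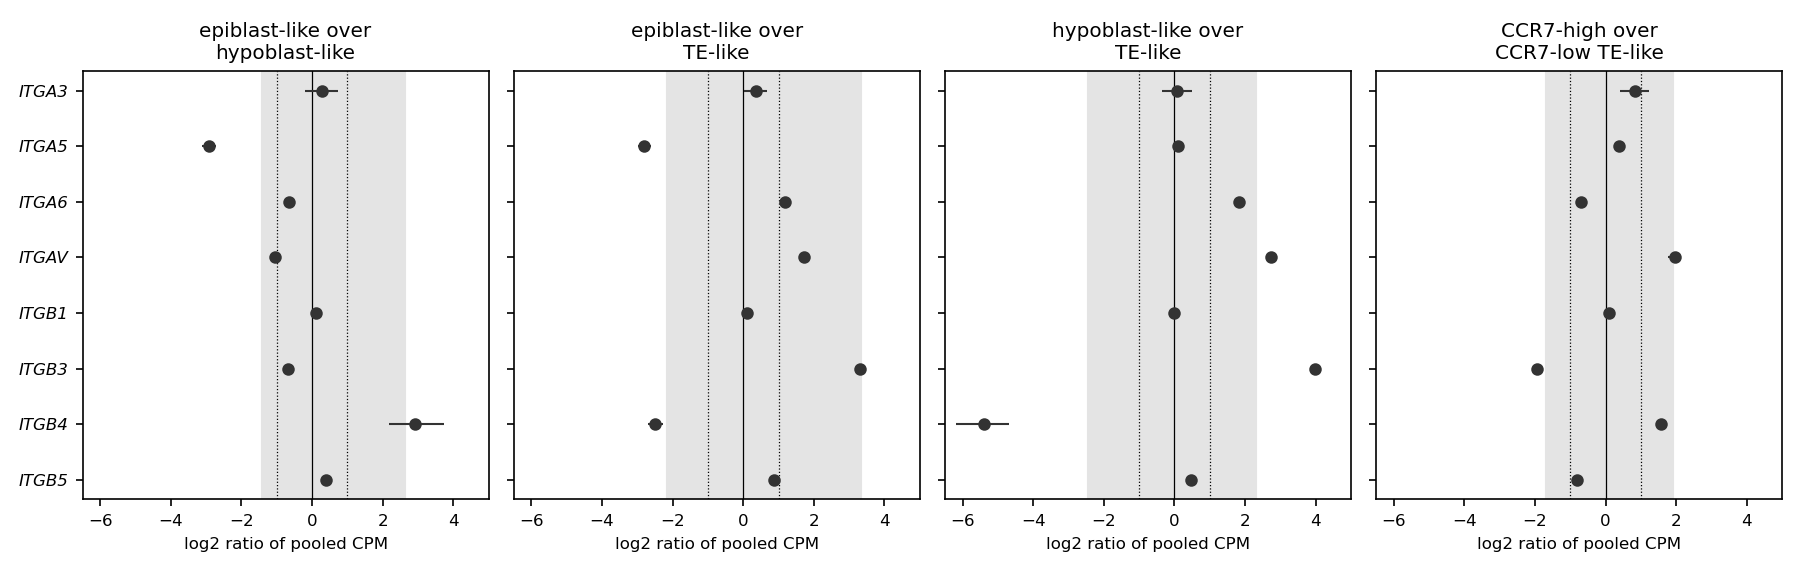
Points give the log2 ratio of pooled CPM (x axis) for the 8 integrin genes with a read in at least 20 cells (y axis) in the 4 comparisons, bars the exact 95% counting interval, dotted lines 2-fold, and the grey band the 5th to 95th percentile of all 15804 genes. Past the edges of the band lie ITGA5 and ITGB4 in both comparisons of epiblast-like cells, ITGB3, ITGAV and ITGB4 in hypoblast-like over TE-like cells, and ITGAV and ITGB3 within the TE-like cells, while ITGB1 lies near 0. Without 1 cell, 4 of these log2 ratios lie inside the edge: ITGAV at 1.96 in hypoblast-like over TE-like cells (edge 2.32) and 1.51 in CCR7-high over CCR7-low cells (edge 1.90), and ITGB4 at 2.42 in epiblast-like over hypoblast-like cells (edge 2.62) and -2.13 in epiblast-like over TE-like cells (edge -2.15).

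An alpha and a beta chain must be made in the same cell to pair, so the cells with both chains at 10 CPM or more were counted. ITGA6 with ITGB1, a laminin receptor, was found in 98% of epiblast-like (95% interval 89.4 to 99.9%), 100% of hypoblast-like (89.1 to 100%), 93.3% of CCR7-low (83.8 to 98.2%) and 70.6% of CCR7-high cells (56.2 to 82.5%). ITGA5 with ITGB1 was found in 2%, 28.1%, 21.7% and 31.4%. These shares followed the alpha chain, since ITGB1 reached 10 CPM in 99% of all cells.

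ITGAV with ITGB3 was found in 14 of 50 epiblast-like, 9 of 32 hypoblast-like, 0 of 60 CCR7-low and 3 of 51 CCR7-high cells, and the exact interval of the 0 reaches 5.96% (3 counts of 60 would be 5%). Many inner cells with ITGB3 had no read of its known partners. Of the 45 epiblast-like cells with ITGB3 at 10 CPM or more, 26 had an ITGAV read, 14 of them at 10 CPM or more, and 30 had a read of ITGAV or of ITGA2B, the platelet partner of ITGB3. Among the 31 hypoblast-like cells with ITGB3 at that level, 19 had an ITGAV read and 20 a read of ITGAV or ITGA2B. The ITGAV shares, 57.8% and 61.3%, were near those over all cells of these classes, 58% and 59.4%. They therefore show nothing particular to cells with ITGB3. Transcripts of low level are missed in single cells, so a cell without a read is not shown to lack the partner.

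ITGA6 with ITGB4, the hemidesmosome pair, was found in 1, 0, 5 and 14 cells, and all 20 cells with ITGB4 at 10 CPM or more also had ITGA6 at that level. ITGAV with ITGB6 was found in no class at 10 CPM or more, and both had a read in 6.74% of all cells. The map of chain pairs by class shows the shares.

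**Figure D4:**
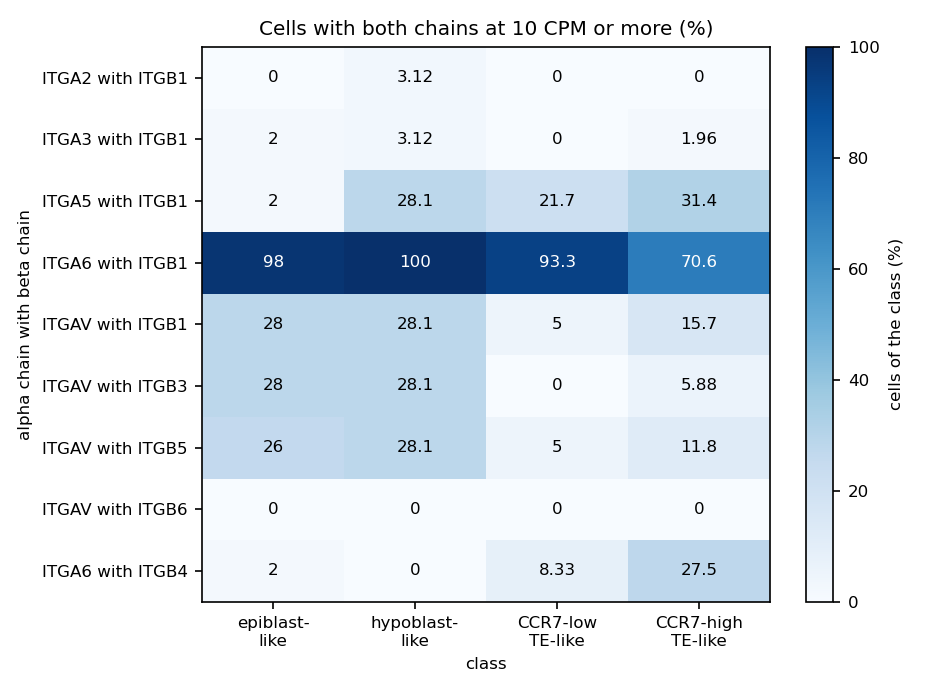
Shading and numbers give the share of cells of a class (in %) with both the alpha and the beta chain of the row at 10 CPM or more. ITGA6 with ITGB1 is at 98%, 100%, 93.3% and 70.6% of the classes, the 3 pairs of ITGAV with ITGB1, ITGB3 and ITGB5 share 26% to 28.1% in the inner classes, and ITGA6 with ITGB4 is at 27.5% in CCR7-high TE-like cells as reported, where the ITGB4 ratio of CCR7-high to CCR7-low cells turned to 0.634 and 0.682 under other settings.

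The number of the 10 genes at 10 CPM or more per cell had a median of 4 in epiblast-like and hypoblast-like cells and of 3 in both TE-like classes, with ranges of 0 to 6, 2 to 7, 2 to 6 and 1 to 5. The epiblast-like cell at 0 had 5709772 reads on 9075 genes, 5 epiblast and 3 trophectoderm markers at 10 CPM or more, and no read of ITGA6, ITGAV, ITGB1, ITGB3 or ITGB5.

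The classes were also divided by lineage genes, as a description of where in a class the chains lie. In hypoblast-like cells, the 14 cells with FOXA2, a factor of maturing hypoblast, at 10 CPM or more had ITGA5 at 17.3 CPM against 2.72 in the 18 others, ITGA6 at 231.8 against 136.5 and ITGB5 at 82.3 against 32.1, while ITGB3 was at 131.9 against 114.6. ITGA5 was read in 13 of these 14 cells and in 8 of the 18. In epiblast-like cells, the 23 with ISL1, a factor of amnion and mesoderm, at that level had ITGB3 at 96.5 CPM against 58.3 in the other 27, and its median per cell was 86.9 against 42.6 CPM. In the same division ITGB1 was at 345.2 against 421.8 CPM and ITGB4 at 0.136 against 1.66 CPM, with an ITGB4 read in 4 of the 23 and 12 of the 27 cells.

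Among CCR7-low cells, the 39 with CDX2, an early trophectoderm factor, at 10 CPM or more had less ITGA6 than the other 21 (52.8 against 81.9 CPM, medians 44.1 and 84.7) and more ITGB3 (13.8 against 7.4 CPM, medians 3.68 and 0). ITGB4 was at 1.71 against 5.12 CPM, but both medians were 0, with a read in 14 of the 39 and 9 of the 21 cells. In the CCR7-high class, the 27 cells with CGA, a subunit of chorionic gonadotropin, at 10 CPM or more had less ITGA6 than the 24 others (26.4 against 49 CPM), less ITGB4 (3.95 against 12.1 CPM) and more ITGAV (7.43 against 1.95 CPM). The medians of ITGB4 in that last division were 1.16 and 2.05 CPM, with a read in 15 cells on each side. The cell with 31.5% of the ITGB4 reads of the class lay among the 24 others, and the level without it was not computed.

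Of 16 other integrin chains, 6 had enough cells. In the order of the comparisons above 3, 2, 1 and 3 of them were called higher and 1, 1, 2 and 1 lower in the first class, where 20.4%, 22.7%, 15.1% and 11.9% of all genes were called higher and 8.05%, 13.1%, 16.7% and 11.2% lower. ITGA1, a collagen- and laminin-binding alpha chain known from extravillous trophoblast, was the one called past 2-fold with at least 10 CPM, at 0.0139, 3.54, 0.0677 and 15 CPM. Its reads lay in few cells, the hypoblast-like level falling to 0.742 CPM without 1 cell, with at least 10 CPM in 9 CCR7-high and 2 hypoblast-like cells. Of the 9 CCR7-high cells, 8 had CGA and 9 had ITGB1 at that level, and 0 had HLA-G, a defining marker of extravillous trophoblast, or 2 other extravillous genes. The 6 extravillous genes, ITGA1 among them, summed to 49.4 CPM in CCR7-high cells and 8.07 to 11.8 CPM elsewhere. ITGAE, the chain of the E-cadherin receptor, was even across classes at 17.1 to 23.7 CPM. Among leukocyte chains, ITGAM was read in 38%, 18.8%, 6.67% and 9.8% of cells, at 2.04, 1, 0.0151 and 0.108 CPM. Without 1 cell its hypoblast-like level was 0.349 CPM. ITGB2, the beta chain that pairs with ITGAM, was read in 5 cells, and ITGB7, ITGAX, ITGAD, ITGAL and ITGA4 were read in 3 to 10 cells each.

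Of 17 ligand genes 12 had enough cells, and in epiblast-like cells 4 were called higher and 5 lower than in hypoblast-like cells (median log2 ratio -0.58, against 0.19 over all genes), and 2 higher and 6 lower than in TE-like cells (-0.68, against 0.12). Of all genes 20.4% and 8.05% were called in the first of these comparisons and 22.7% and 13.1% in the second. Hypoblast-like cells had 4 higher and 3 lower than TE-like cells (0.07, beside 15.1% and 16.7% of all genes), and CCR7-high cells 4 higher and 1 lower than CCR7-low cells (0.24, beside 11.9% and 11.2%), SPP1 among the 4 through 1 cell with 70.4% of its CCR7-high reads. SPP1, which encodes osteopontin, a ligand of ITGAV receptors, stood at 982.6 CPM in epiblast-like cells against 19.3, 3.23 and 7.13 CPM in the others. FN1, fibronectin, the ligand of ITGA5, had pooled levels of 35.1, 130.6, 4.15 and 6.49 CPM, but 3 hypoblast-like cells held 69.4% of the reads of their class. Its medians per cell were close in the inner classes, at 11 and 13.2 CPM, and the share of cells with a read was 90% in the epiblast-like and 68.8% in the hypoblast-like class. The collagen IV chains COL4A1 and COL4A2, which form the network of basement membranes, had 142.1 and 55 CPM in hypoblast-like cells (medians per cell 11.3 and 4.02) and at most 2.6 and 7.99 CPM in any other class.

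The laminin chains LAMA1, LAMB1 and LAMC1, which together form a laminin of the embryonic basement membrane, were lowest in epiblast-like cells, at 23.2, 74.6 and 93.1 CPM. They had 166.7, 370.2 and 157.1 CPM in hypoblast-like, 411.7, 301.9 and 366.1 CPM in CCR7-low, and 221.1, 239.5 and 111.9 CPM in CCR7-high cells. LAMC1 was the ligand called lower with at least 10 CPM in CCR7-high than in CCR7-low cells, by 3.27-fold. VTN, vitronectin, had no read in the inner classes and 94 reads among TE-like cells.

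Of 16 genes whose proteins act at the inner face of integrins (talins, kindlins and other links to actin, kinases, and the inhibitors SHARPIN and ITGB1BP1), 15 had enough cells. Against hypoblast-like cells, 1 was called higher and 4 lower in epiblast-like cells (median log2 ratio -0.32, beside 20.4% and 8.05% of all genes), and against TE-like cells 0 were higher and 3 lower (-0.30, beside 22.7% and 13.1%). Hypoblast-like cells had 1 higher and 2 lower than TE-like cells (0.00, beside 15.1% and 16.7%), and CCR7-high cells 2 higher and 2 lower than CCR7-low cells (0.25, beside 11.9% and 11.2%). The kindlin FERMT2 was highest in hypoblast-like cells, at 209.7 CPM against 69.1, 89.8 and 79.7 CPM, and the kindlin FERMT1, typical of epithelia, was lowest there, at 1.88 CPM against 5.89, 6.63 and 15.2 CPM. The talins, which activate integrins by binding the beta chain, differed within the trophectoderm: TLN1 was 2.96-fold higher in CCR7-high than in CCR7-low cells (68 against 23 CPM), and TLN2 was 3.55-fold lower (7.98 against 28.3 CPM). PARVA, a parvin of the complex with ILK, was lowest in epiblast-like cells at 7.65 CPM, against 21.2, 25.4 and 34 CPM, and ILK itself was even at 127.7 to 177.8 CPM.

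Of 7 partners in the membrane and in hemidesmosomes, 0, 1, 2 and 0 were called higher and 1, 0, 0 and 0 lower in the first class of the comparisons in the order above, beside 20.4%, 22.7%, 15.1% and 11.9% of all genes higher and 8.05%, 13.1%, 16.7% and 11.2% lower. DST, a form of which links ITGB4 to filaments, was called with at least 10 CPM, and counts per gene do not tell its forms apart. It was highest in hypoblast-like cells (153.7 CPM), where ITGB4 was nearly unread, and stood at 64.9, 47.8 and 32.3 CPM in the other classes. The collagen COL17A1 of hemidesmosomes had 2.67, 1.57, 0.749 and 0.427 CPM, and was called higher in epiblast-like and in hypoblast-like than in TE-like cells, by 4.5-fold and 2.65-fold (1.92-fold without the hypoblast-like cell with the most of its reads). The tetraspanin CD151, a partner of ITGA6 and ITGA3, was at 73.9, 44.2, 57.4 and 33.1 CPM.

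**Figure D5:**
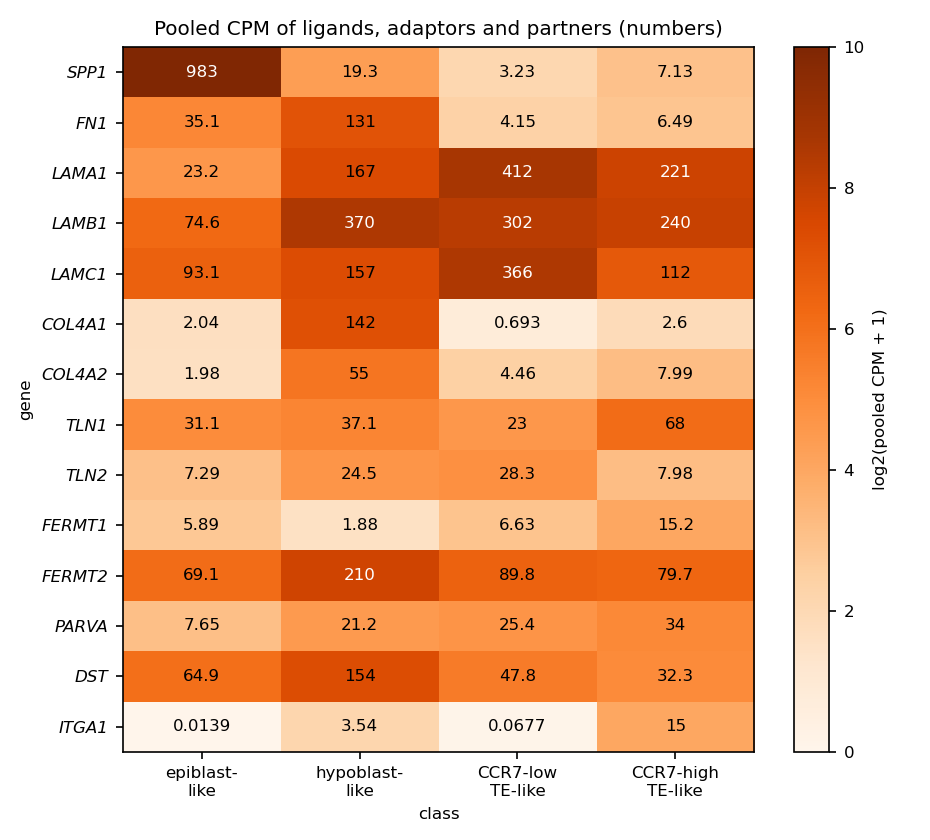
Numbers give pooled CPM and shading log2(pooled CPM + 1) of the ligands, adaptors and other partners called past 2-fold with at least 10 CPM in some comparison, by class. SPP1 at 982.6 CPM is highest in epiblast-like cells, COL4A1 at 142.1 and FERMT2 at 209.7 CPM in hypoblast-like cells, LAMA1 at 411.7 CPM in CCR7-low cells, and ITGA1 at 15 CPM in CCR7-high cells.

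The genes whose CPM ranked most like each integrin over all cells that passed were named as a description. These cells share no library but differ in class and depth, and a correlation over them follows the classes as well as any other source. ITGB3 ranked most like NFKB2, SLC47A1 and TNFSF9 (Spearman rho 0.80 for each), ITGA6 like AKAP12 (0.65) and PROM1 (0.58), and ITGB1 like TM9SF2 (0.57) and ATAD1 (0.56). The nearest genes of ITGB4, ITGB5, ITGA5 and ITGAV had rho of 0.51 (ENSPTRG00000049981), 0.47 (TPST2), 0.41 (FOSL2) and 0.39 (IL6R). Over the TE-like cells alone, the nearest gene was CD200 for ITGB3 (0.60), PROM1 for ITGA6 (0.62) and TMED10 for ITGB1 (0.69). Among the integrins, ITGA6 and ITGB3 had rho of 0.50 over all cells and 0.03 over the TE-like cells, and ITGB3 and ITGB4 had -0.36 and -0.20.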

How the data were processed

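Single cells of day 4 chimpanzee blastoids were measured by SMART-seq2. The authors deposited read counts per gene, not normalized, for 217 cells and 33729 identifiers. Per the study's methods, FastP trimmed the reads and STAR aligned and counted them on Ensembl chimpanzee genes. The submitters' processing notes list Trim Galore 0.6.6, STAR 2.7.7a and GRCh38 instead, while all 33729 identifiers are chimpanzee ones, so the version used for these counts is not settled. Counting by strand is not given in the sources used here. Symbols came from a table covering 18783 identifiers, and overlaps of genes from RefSeq, whose build differs, so no coordinates are given.

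The filter of 4000 reads and 8000 detected genes kept 193 cells, 111 of them TE-like, and a gene was called only where 20 or more of these had a read. The study states limits of the same values but reports fewer cells kept and fewer genes at the start. The cells and classes here are thus not exactly those of the study. Scanpy 1.11.5 normalized and log-transformed the counts and computed 50 components and 30 neighbours, and leidenalg 0.10.2 clustered at resolution 1 with seed 0. Clusters were named by the mean standardized level of the lineage lists, with at least 3 markers at 1 CPM, and the TE-like clusters by CCR7. Doublets were not called or removed. Tables were handled with pandas 2.3.3 and numpy 2.4.6, intervals with scipy 1.17.1 and plots with matplotlib 3.10.9 in Python 3.11.15.

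All 10 integrin genes are named, with companion genes past 2-fold at 10 CPM or more in the higher class, and the genes ranked most alike. ITGA2B, ITGA4, ITGAD, ITGAE, ITGAL, ITGAM, ITGAX, ITGB2, ITGB7, VTN, ILK, COL17A1 and CD151 were named after their values were seen. The integrins and lists were chosen with earlier results of these data known. The steps were tested on simulated data. Alternatives covered the cell and gene filters, scaling, the summary over cells, neighbours, seed, clustering without integrin genes, mixed cells, the deepest cells and thinning. Leaving out the cell with the most reads of a gene was added after seeing the data.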

Additional observations from a re-analysis of the deposited data

Results flagged for a closer look

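The 24 cells with fewer than 8000 detected genes were left out of the values reported, some of them entering only where the minimum was lowered to 7000 genes, and reads of 9 of the 10 integrin genes were present in them. A read of ITGB1 was found in 24 of these cells, of ITGA6 in 20, of ITGB5 in 15, of ITGB3 in 12 and of ITGA5 in 10. ITGAV was read in 6 of the cells, ITGB4 in 5, ITGA2 in 4 and ITGA3 in 4. ITGB6 was read in 0 of 24 cells, where the exact 95% interval reaches 14.2%. Pooled levels were 241.1 CPM for ITGB1, 92.6 CPM for ITGA6 and 13.3 CPM for ITGB4, and 2 of the cells had ITGB4 at 10 CPM or more, the highest at 120 CPM. At the minimum of 8000 genes these cells were given no class, so the levels here belong to no lineage.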

How the results depend on the processing

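Of the counts of integrin genes past 2-fold, 90 values under alternative settings were within 1.5 times the reported count and 22 were not. Ratios could leave their counting intervals under other settings, since these intervals do not cover the choice of setting. The ITGB3 ratio of epiblast-like to TE-like cells ran from 8.4 to 10.4 (interval 9.63 to 10.3). The ITGA6 ratio of hypoblast-like to TE-like cells ran from 3.18 to 3.83 (3.5 to 3.62). The ITGB4 ratio of TE-like to epiblast-like cells stayed inside, at 5.03 to 6.41 (4.86 to 6.51). Of the ratios past 2-fold, 9 values fell short of it and the others stayed past it. The 9 were ITGAV in epiblast-like against hypoblast-like cells (0.603 as mean CPM, 0.505 and 0.809 with minima of 7000 and 9000 genes, 0.516 without the deepest cell of each class, 0.533 thinned, 0.689 without the cell with most ITGAV reads in each class, an alternative added after seeing the data), ITGA6 in epiblast-like against TE-like cells (1.98, median of ratios), and ITGB4 in CCR7-high against CCR7-low cells, which reversed to 0.634 with 7000 genes and to 0.682 with 15 neighbours. Ratios short of 2-fold passed it in 10 values of 3 genes: ITGA3, in epiblast-like against hypoblast-like cells (6.18 with 9000 genes, 9.24 thinned, 4.59 without top cells), hypoblast-like against TE-like cells (0.2, 0.118 and 0.274) and CCR7-high against CCR7-low cells (2.27 as mean CPM), and in the last comparison ITGA6 (0.482 with 7000 genes, 0.485 with 15 neighbours) and ITGB5 (0.488 as mean CPM). With 15 neighbours the CCR7-high share was 19.7%, against 26.4% reported. For epiblast-like against hypoblast-like cells, the genes higher numbered 0 at 5 CPM or more and without mixed cells (where ITGB4, with no hypoblast-like read left, has no ratio and was not counted), and 2 with 9000 genes, when thinned and without top cells, against 1 reported. The genes lower numbered 1, against 2, as mean CPM, with 7000 or 9000 genes, without the deepest or top cells and when thinned. In epiblast-like against TE-like cells 1 gene was lower at 5 CPM or more, against 2. In hypoblast-like against TE-like cells the genes lower were 0 at 5 CPM or more and 2 with 9000 genes, when thinned and without top cells, against 1. In CCR7-high against CCR7-low cells, 1 gene was higher at 5 CPM or more, with 7000 genes and with 15 neighbours, against 2, and 2 were lower as mean CPM, with 7000 genes and with 15 neighbours, against 1. The 5 CPM minimum leaves fewer genes to call, and otherwise the cause was not tested. No paired analysis was possible because the labels tie no cell to a blastoid, so all cells were treated as 1 sample. For this reason, no value here can be set against the spread between blastoids, and shares at a few percent rest on 1 to 3 cells.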
